A study of Homo sapiens with 4 samples.

Results

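Cells repair DNA by several routes, and the genes of these routes were followed here in HepG2 cells, an established line from a human liver tumour that the sample labels name as hepatoblastoma. The set comprises genes of DNA damage signalling, homologous recombination, the Fanconi anaemia pathway, end joining, mismatch repair, base excision and nucleotide excision repair. Its members were given as a list of gene symbols, and all 49 symbols listed were found among the 30863 genes of the deposited expression table. The cells were wild type and had been kept for 48 h with AMF (amentoflavone, a plant biflavonoid) or with DMSO, the solvent, and RNA of 2 libraries per group was sequenced after poly(A) selection. The treatment protocol gives the dose as 90 µM AMF, while the design text of the series names Tub B at 80 µM, and both the agent and the dose of the AMF group are therefore uncertain. Nothing in the labels says that the libraries of a group came from separate cultures, and every p-value here is set against the scatter of these libraries, which may be only technical.

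Damage signalling starts from the kinases ATM, which answers to double-strand breaks, and ATR, which answers to single-stranded DNA at stalled forks. Breaks are joined end to end by non-homologous end joining in any phase of the cycle, or copied from the sister chromatid by homologous recombination in S and G2 phase, while the Fanconi anaemia proteins unhook crosslinks between the strands. Many recombination and Fanconi genes are transcribed mainly in cells that are replicating their DNA, under E2F transcription factors.

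Libraries held 24226586 to 26966210 reads in genes. Values are normalized counts (reads divided by a size factor per library), given for replicates 1 and 2 of a group in that order and followed by the mean ± SD of the pair (n = 2 libraries in each group). A change is the log2 ratio of AMF over DMSO on the log2(normalized count + 1) scale, given with its standard error (SE), and a gene was called at an adjusted p of under 0.05 in limma's test over all 23828 genes tested. Hepatocyte markers, 10 on the list, were all detected, with 1 called higher and 7 lower and with ALB, which encodes serum albumin, at 116050 to 125341 normalized counts in the 4 libraries. Of 9 markers of other liver cell types with a row in the table, COL3A1 reached at most 1 read per library and KRT7 and CD68 stayed under 10 normalized counts, whereas KRT19, a keratin of bile duct cells, had 14350 and 15819 in AMF and 7880 and 7452 in DMSO. Of the 8 of these markers that were tested, 4 were called higher (KRT19, ACTA2, PECAM1 and VWF) and 1 lower. The fall was that of COL1A1, with 5.57 and 8.24 in AMF and 116 and 86.2 in DMSO. The 8 together, with KRT19 making up most of each sum, came to 15864 and 17359 normalized counts in AMF and 8928 and 8512 in DMSO. Their part in the results below was not tested.

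The 49 listed repair genes were on balance modestly lower in AMF. The 102 other genes of these pathways had a median log2 change of -0.06, with 29.4% called lower. Both lists were chosen with earlier results of these data known. Of the 49 members, all of which passed the filter on low values, 22 were called lower, 4 higher and 23 were not called. The members called lower made up 44.9%, beside 16.2% of all genes tested, and those called higher made up 8.16%, beside 15.6% of all genes tested. Most members were well counted, 47 of the 49 averaging 100 or more normalized counts, and among the 11137 genes of that level 31.1% were called lower, 23.6% higher and 54.7% in either direction, beside 53.1% of the members in either direction. The median log2 change of the members was -0.18, with a range of -0.79 to 0.52, beside a median of 0.04 over all genes tested and of -0.04 over those averaging 100 or more. Both AMF libraries lay below both DMSO libraries for 32 members and above them for 8, against 29.7% and 33.8% of all genes tested and 44.6% and 35.4% of those averaging 100 or more. No member changed as much as 2-fold in either direction, and the largest fall was to 0.577 of the DMSO level.

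These calls rest on few libraries. Without DMSO replicate 1, 10 members were called lower and 2 higher, and without DMSO replicate 2, 13 and 1. Without AMF replicate 1 or 2, limma-trend kept none of these calls (prior degrees of freedom 0.995 and 1). With limma's voom method on recovered reads, only the calls of FANCA, FANCI and PRKDC were kept without either. The fold change of no member moved by more than 1.261 times when a library was left out in limma-trend, or 1.267 times with voom. In an exact permutation test, 2 libraries against 2 could not go below p = 0.333, so none was run on single genes.

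**Figure D1:**
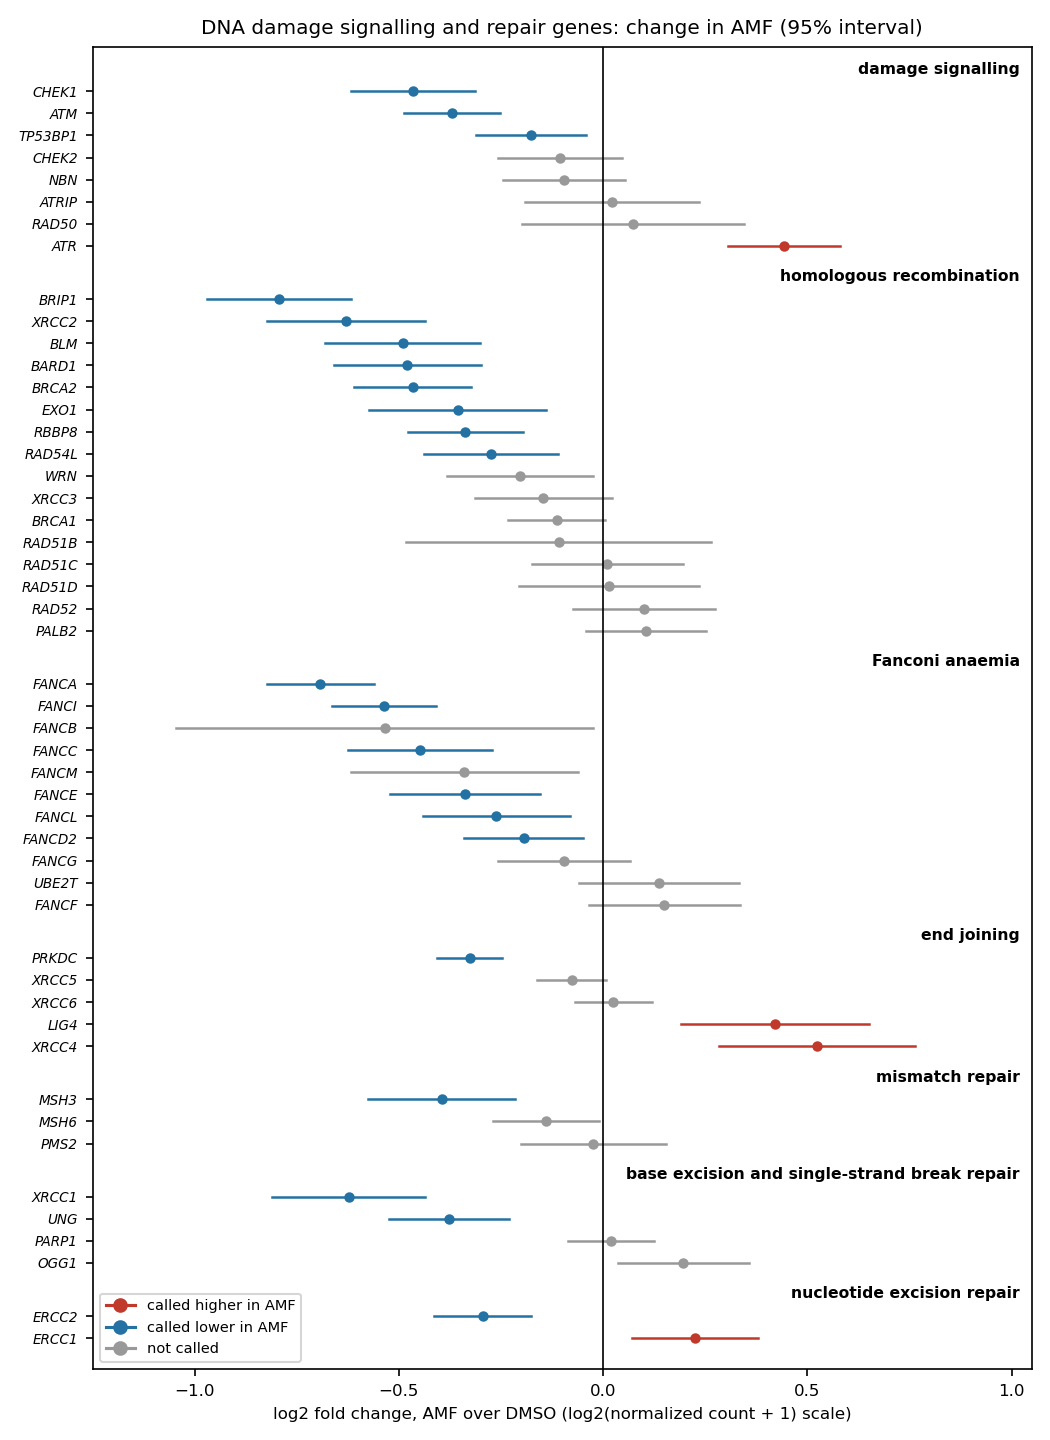
Log2 fold change of AMF over DMSO (x axis) for the 49 genes, by repair pathway, with the estimate (point) and its 95% interval (line) from limma; red marks genes called higher in AMF, blue those called lower and grey those not called. Most points lie left of 0, BRIP1 lowest at -0.79, and ATR, XRCC4, LIG4 and ERCC1 are the 4 called higher.

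Most cell cycle genes were lower too. Of 20 proliferation genes, 16 were called lower (80%), 1 higher (5%) and 3 were not called, with a median log2 change of -0.48. Of all genes averaging 100 or more normalized counts, 31.1% were called lower and 23.6% higher. The proliferation marker MKI67 had 8707 and 8738 normalized counts in AMF and 13792 and 12335 in DMSO, a log2 change of -0.58 (SE 0.0487, adjusted p = 4.30e-07). E2F1, a transcription factor for replication and repair genes, had 1669 and 1495 in AMF and 3113 and 2780.2 in DMSO (log2 change -0.90, SE 0.0675, adjusted p = 1.39e-07). The sliding clamp gene PCNA had 7444 and 7608 in AMF and 8737 and 7700.0 in DMSO and was not called (log2 change -0.12, SE 0.053, adjusted p = 0.094), and the cyclin CCNE1 was the one called higher, by 0.28. In bulk RNA a smaller share of cells in S phase and less of these transcripts per cell cannot be told apart, and the part of the cell cycle in the changes of the repair genes was not tested.

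Genes that p53 or DNA damage can induce moved in both directions. Of 18 tested genes on that list, 9 were called higher (50%), 5 lower (27.8%) and 4 were not called, with a median log2 change of 0.21. Of all genes averaging 100 or more normalized counts, 23.6% were called higher and 31.1% lower. The share called lower on the list was thus near that of all genes at this level. CDKN1A, which encodes the cell cycle inhibitor p21, was the largest rise, with 8060 and 8201 normalized counts in AMF and 3221 and 3033 in DMSO (log2 change 1.38, SE 0.0463, adjusted p = 4.39e-11), and PMAIP1, a BH3-only death gene, the largest fall (-0.60, SE 0.142, adjusted p = 0.00427). The list holds 4 genes, XPC, DDB2, POLH and PPM1D, that also stand among the other genes of the repair pathways below. DDB2, which recognises ultraviolet lesions, fell by 0.50, PPM1D, a phosphatase that ends damage signalling, fell by 0.19, and XPC (0.13) and the polymerase gene POLH (0.18) were not called.

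**Figure D2:**
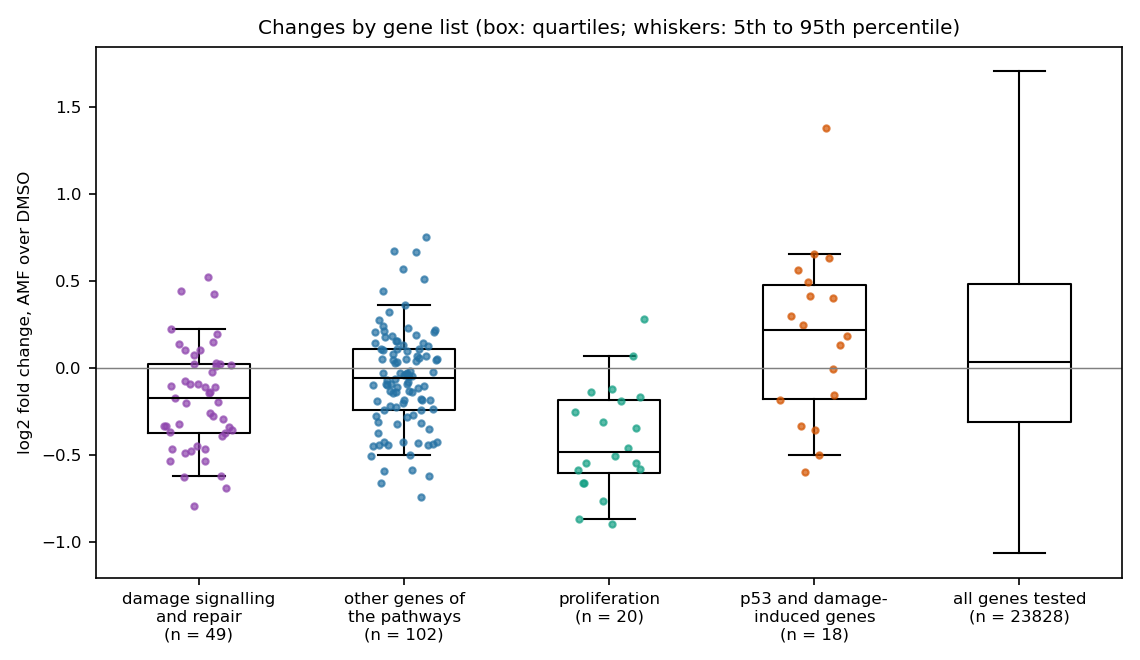
Log2 fold change of AMF over DMSO (y axis) by gene list, 1 point per gene, with boxes at the quartiles, whiskers at the 5th and 95th percentiles and no points for all genes tested. The median of the 49 repair genes (-0.18) lies between that of proliferation genes (-0.48) and that of all 23828 genes (0.04).

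RefSeq promoter windows, from 250 bases before to 50 bases after an annotated start on GRCh38.p14, were at hand for 44 of the 49 members (no entry for NBN, WRN, FANCI, XRCC5 and PRKDC). An E2F site, taken as TTTCCCGC, TTTGGCGC, TTTGCCGC or TTTCGCGC on either strand, stood in a window of 10 of the 44 members (22.7%), beside 3.99% of all 27305 genes with a window. It was found in 7 of the 20 members called lower and in 3 of the 24 others (MSH6, PMS2 and XRCC6), and the median log2 change was -0.37 with a site and -0.11 without. The cell cycle element CHR (TTTGAA or TTTAAA) gave the same split, 7 of 20 and 3 of 24, with medians of -0.37 and -0.13, although it stood in 22.7% of members and 27.9% of all genes. The CCAAT box (letters CCAAT) stood in 56.8% of the 44 members and 39.7% of all genes, in 10 of the 20 called lower and 15 of the 24 others, with medians of -0.14 with it and -0.26 without. Per window, an E2F site stood in 16.2% of the 68 member windows and in 3.31% of all 35116. All genes with a window were taken whatever their level, and no difference between these shares or medians was tested. A match describes letters in a window and not binding.

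The 4 promoters shown are those of the members with the largest falls among those with an E2F site, FANCA, XRCC2, FANCC and MSH3, each 5′ to 3′ along its gene and ending 30 bases into the transcript, with the E2F sites in capitals. They lie on GRCh38.p14 at chr16:89816618-89816827 (minus strand), chr7:152676112-152676291 (minus strand), chr9:95317680-95317889 (minus strand, 1 of 2 listed windows) and chr5:80654502-80654681 (plus strand). Counted from the first transcribed base as 1, with -1 just before it, the sites begin at -172 in FANCA, 22 in XRCC2, -172 and -46 in FANCC, and -107 and -103 in MSH3, where the 2 sites overlap on opposite strands.
FANCA: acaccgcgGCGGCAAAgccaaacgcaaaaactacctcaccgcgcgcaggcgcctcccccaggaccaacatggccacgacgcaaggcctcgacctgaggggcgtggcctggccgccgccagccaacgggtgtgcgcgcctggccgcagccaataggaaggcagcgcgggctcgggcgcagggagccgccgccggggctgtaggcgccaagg
XRCC2: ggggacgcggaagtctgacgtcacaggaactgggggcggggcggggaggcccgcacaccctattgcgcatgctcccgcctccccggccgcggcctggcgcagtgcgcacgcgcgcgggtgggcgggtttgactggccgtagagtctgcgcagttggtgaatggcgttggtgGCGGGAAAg
FANCC: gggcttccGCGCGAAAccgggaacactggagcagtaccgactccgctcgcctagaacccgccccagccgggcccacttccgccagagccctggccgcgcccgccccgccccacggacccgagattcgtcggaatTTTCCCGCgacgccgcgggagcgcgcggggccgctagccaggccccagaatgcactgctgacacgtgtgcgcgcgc
MSH3: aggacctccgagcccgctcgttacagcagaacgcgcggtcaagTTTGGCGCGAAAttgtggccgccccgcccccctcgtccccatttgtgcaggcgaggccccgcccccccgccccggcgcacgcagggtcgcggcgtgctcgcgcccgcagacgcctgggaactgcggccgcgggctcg

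Among the damage signalling genes the apical kinases went apart, with ATR higher and ATM lower. Of 8 members, 1 was called higher (12.5%), 3 lower (37.5%) and 4 were not called. Among all genes averaging 100 or more normalized counts 23.6% were called higher and 31.1% lower, so the share called lower was near that level. The median log2 change was -0.10 (-0.065 without DMSO replicate 1). ATR had 1334 and 1298 normalized counts in AMF (1316 ± 25.7) and 987 and 949.7 in DMSO (968 ± 26.1), a log2 change of 0.44 (SE 0.0636, adjusted p = 7.65e-05). ATM had 1898 and 1946 in AMF (1922 ± 33.9) and 2415 and 2556 in DMSO (2486 ± 99.9), a log2 change of -0.37 (SE 0.0545, adjusted p = 9.43e-05). Neither kinase gene had overlapping groups, and the gap between groups was several times the spread within each. Groups without overlap were common, with AMF below in 44.6% and above in 35.4% of all genes averaging 100 or more. ATRIP, which brings ATR to single-stranded DNA, was not called, with a log2 change of 0.02 and a 95% interval of -0.19 to 0.24, and its AMF libraries lay on either side of both DMSO libraries.

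The 2 checkpoint kinase genes are the main targets of these kinases. CHEK1, which encodes the kinase that ATR activates to hold cells in S and G2 phase, had 945 and 907 normalized counts in AMF (926 ± 27.4) and 1348.5 and 1212 in DMSO (1280.5 ± 96.2), a log2 change of -0.47 (SE 0.0703, adjusted p = 1.21e-04). CHEK2, the target of ATM, had 879 and 826 in AMF (853 ± 37.6) and 937 and 898 in DMSO (917 ± 27.1) and was not called (log2 change -0.11, SE 0.0704, adjusted p = 0.29). Both CHEK2 values of AMF were below both of DMSO, but the gap between the nearest libraries was smaller than the spread within either group, and the 95% interval ran from -0.26 to 0.05. CHEK2 has near-identical pseudogene copies, so its reads are less certain.

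TP53BP1 encodes 53BP1, a chromatin reader that shields break ends from resection. It had 1083 and 1098 normalized counts in AMF (1090.4 ± 10.9) and 1259 and 1206 in DMSO (1232 ± 36.9), a log2 change of -0.18 (SE 0.063, adjusted p = 0.046). That call ended with a pseudocount of 0.1, without a filter and with library totals as scaling, and 28.7% of its exon bases overlap TUBGCP4. The partners RAD50 and NBN of the break sensor complex were not called, with log2 changes of 0.07 (95% interval -0.20 to 0.35) and -0.10 (-0.24 to 0.05). RAD50 had only 192 normalized counts on average in AMF and 183 in DMSO, and 79.7% of its exon bases are shared with another annotated gene, AC116366.3.

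**Figure D3:**
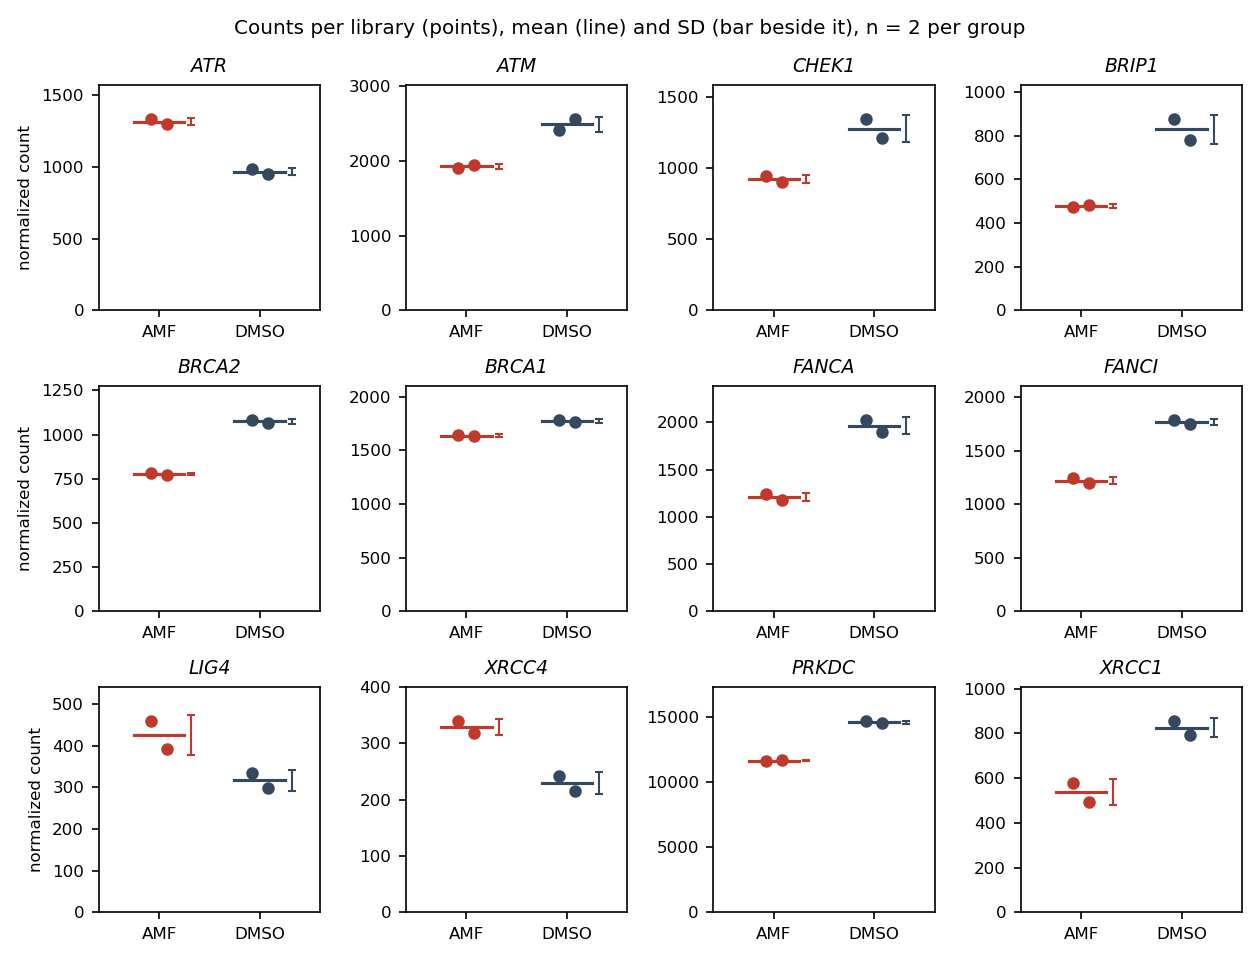
Normalized counts (y axis, from 0) in each library of AMF (left) and DMSO (right) for 12 repair genes, with points for the 2 libraries, a line at the mean and a bar of 1 SD. ATR, LIG4 and XRCC4 are higher in both AMF libraries, and the other 9 genes lie lower in both, BRCA1 by the smallest margin.

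Homologous recombination genes were lower or not called, and 0 of 16 were called higher (limma; 0 also with voom and at an unadjusted p under 0.05). Of these, 8 were called lower (50%), 8 were not called, and the median log2 change was -0.24. The shares among all genes averaging 100 or more normalized counts were 31.1% lower and 23.6% higher. BRIP1, a helicase bound to BRCA1 that is also Fanconi protein J, fell the most of all members, with 471 and 482 normalized counts in AMF (476 ± 8.01) and 876 and 780.3 in DMSO (828 ± 67.5), a log2 change of -0.79 (SE 0.0825, adjusted p = 3.67e-06). BARD1, the obligate partner of BRCA1 in its ubiquitin ligase, had 462 and 469.7 in AMF (466 ± 5.18) and 682 and 620.1 in DMSO (651 ± 43.6), a log2 change of -0.48 (SE 0.0839, adjusted p = 4.32e-04). BRCA1 itself was not called, with 1647 and 1632 in AMF (1639.5 ± 10.96) and 1784 and 1763 in DMSO (1774 ± 15.2), a log2 change of -0.11 (SE 0.0554, adjusted p = 0.144) and a 95% interval of -0.23 to 0.01. The intervals of BRIP1 (-0.97 to -0.62) and BARD1 (-0.66 to -0.30) do not reach that of BRCA1, though the differences between genes were not tested.

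BRCA2 acts after resection to start the search for the sister copy, and PALB2 joins it to BRCA1. BRCA2 had 781 and 774 normalized counts in AMF (777 ± 5.14) and 1083 and 1066 in DMSO (1074 ± 12.0), a log2 change of -0.47 (SE 0.0668, adjusted p = 7.51e-05). PALB2 was not called, with a log2 change of 0.10 (95% interval -0.04 to 0.25) and overlapping groups.

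RAD51B, RAD51C, RAD51D and XRCC2 form a complex that aids strand exchange, and RAD51C also pairs with XRCC3. XRCC2 had 426 and 446 normalized counts in AMF (436 ± 14.0) and 725 and 628 in DMSO (677 ± 68.2), a log2 change of -0.63 (SE 0.09, adjusted p = 7.35e-05). The other 4 were not called, with log2 changes of -0.11 for RAD51B, 0.01 for RAD51C, 0.01 for RAD51D and -0.15 for XRCC3. Their 95% intervals were widest for RAD51B, from -0.48 to 0.26 at 94.3 ± 0.700 normalized counts in AMF and 102 ± 6.94 in DMSO, so that a fall as large as that of BRCA2 lies inside its interval. XRCC3 shares 76.7% of its exon bases with KLC1 on the opposite strand, and RAD51D shares 8.0% of its with RAD51L3-RFFL.

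The remaining recombination members act in resection, unwinding or annealing. BLM, the Bloom syndrome helicase, had 393 and 383 normalized counts in AMF (388 ± 6.76) and 569 and 524 in DMSO (546 ± 31.95), a log2 change of -0.49 (SE 0.0886, adjusted p = 5.59e-04). The resection genes RBBP8, which encodes CtIP, and EXO1, a nuclease, fell by 0.34 and 0.36, and RAD54L, a DNA translocase gene, fell by 0.28. RAD54L overlaps LRRC41 over 25.1% of its exon bases. The Werner syndrome helicase gene WRN was not called at -0.20, although both its AMF values (534 and 489) were below both DMSO values (592 and 585), and RAD52, a strand annealing protein gene, was not called at 0.10.

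Fanconi anaemia genes had a median log2 change of -0.34 (-0.201 without DMSO replicate 1), with 6 of 11 called lower (54.5%) and 5 not called. In limma 0 were called higher, and 0 also with voom and at an unadjusted p under 0.05. Beside them, 31.1% of all genes averaging 100 or more normalized counts were called lower and 23.6% higher. The core complex, a ubiquitin ligase on crosslinked DNA, includes FANCA, FANCB, FANCC, FANCE, FANCF, FANCG and FANCL, with FANCM as its anchor. FANCA had 1242 and 1183 normalized counts in AMF (1213 ± 42.3) and 2024 and 1897 in DMSO (1961 ± 89.8), a log2 change of -0.69 (SE 0.061, adjusted p = 7.10e-07), with 23.6% of its exon bases overlapping ZNF276. FANCC had 448 and 478 in AMF (463 ± 21.5) and 639 and 624 in DMSO (631 ± 10.3), a log2 change of -0.45 (SE 0.0825, adjusted p = 6.57e-04). FANCE, which links the complex to FANCD2, had 483 and 438 in AMF (460.3 ± 31.8) and 585 and 578 in DMSO (581 ± 4.79), a log2 change of -0.34 (SE 0.0859, adjusted p = 0.00708). In all 3 both AMF libraries lay below both DMSO libraries, as in 44.6% of all genes averaging 100 or more.

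FANCL, the catalytic subunit, fell by 0.26 (SE 0.0842, adjusted p = 0.028), a call that ended without a filter. FANCG was not called at -0.10, nor was FANCF at 0.15 (95% interval -0.04 to 0.34), whose AMF values of 483 and 471 were both above the DMSO values of 424 and 435. FANCM was not called at -0.34, with 261 and 264 in AMF and 384 and 287 in DMSO. It was called lower with voom, with a filter at a mean of 10 and with a replicate block. FANCB, the member with the fewest counts, was not called at -0.53, with 76.1 and 58.7 in AMF and 123 and 77.0 in DMSO. In both genes the AMF values lay below both DMSO values, and the DMSO libraries were far apart.

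The core complex acts on the FANCI and FANCD2 pair with UBE2T as the conjugating enzyme. FANCI had 1243 and 1196 normalized counts in AMF (1219.7 ± 33.5) and 1789 and 1748 in DMSO (1769 ± 28.9), a log2 change of -0.54 (SE 0.0589, adjusted p = 6.21e-06). FANCD2 fell by 0.19 (SE 0.0679, adjusted p = 0.0411), and its call ended with a pseudocount of 0.1, without a filter and with library totals as scaling. FANCD2 has pseudogene copies that could take or give reads. UBE2T was not called at 0.14 (95% interval -0.06 to 0.33), with overlapping groups, whereas the enzyme gene that reverses the reaction, USP1, stands outside the 49 and fell by 0.60 (SE 0.0625, adjusted p = 3.95e-06).

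End joining genes went both ways, with 2 of 5 called higher (40%), 1 lower (20%) and 2 not called. In all, 60% were called, near the 54.7% of all genes averaging 100 or more normalized counts. The 2 rises in end joining were XRCC4 and LIG4, whose products form the ligase complex that seals the ends. XRCC4 had 340 and 319 normalized counts in AMF (329.6 ± 14.5) and 243 and 216 in DMSO (229 ± 19.3), a log2 change of 0.52 (SE 0.112, adjusted p = 0.00216). LIG4 had 459.6 and 392.5 in AMF (426 ± 47.5) and 335 and 299.8 in DMSO (317 ± 24.8), a log2 change of 0.42 (SE 0.107, adjusted p = 0.00715). Both genes were higher in both AMF libraries than in either DMSO library, as were 35.4% of all genes averaging 100 or more.

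PRKDC, XRCC5 and XRCC6 encode the DNA-dependent protein kinase and the Ku80 and Ku70 proteins that load it on ends. PRKDC had 11629 and 11659 normalized counts in AMF (11644 ± 21.2) and 14680 and 14514 in DMSO (14597 ± 117), a log2 change of -0.33 (SE 0.0371, adjusted p = 8.62e-06). XRCC5 had 12007 and 12453 in AMF (12230 ± 315) and 13098 and 12692 in DMSO (12895 ± 287), a log2 change of -0.08 (SE 0.0394, adjusted p = 0.166, 95% interval -0.16 to 0.01). XRCC6 had 11562 and 11425 in AMF (11493 ± 96.2) and 11762 and 10851 in DMSO (11306 ± 644), a log2 change of 0.02 (SE 0.0437, adjusted p = 0.721, 95% interval -0.07 to 0.12). A change of the Ku genes by as much as that of PRKDC lies outside their intervals. These intervals rest on 2 libraries per group, whose scatter may be only technical, and the sign of XRCC6 turned without DMSO replicate 2.

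Levels per length set these genes far apart. Per kb of exon of their coding transcripts, XRCC6 and XRCC5 averaged 3903 and 3252 normalized counts in AMF and 3839 and 3429 in DMSO, the highest of the 49. PARP1 (1325 in AMF and 1308 in DMSO), UBE2T (873 and 797) and PRKDC (862 and 1081) followed. LIG4 stood at 97.1 per kb in AMF and 72.3 in DMSO and XRCC4 at 190.4 in AMF and 132 in DMSO, so the ligase complex genes stayed well below the Ku genes in both groups. The lowest were RAD51B (22.2 in AMF and 24.0 in DMSO), FANCB (22.4 and 33.2) and RAD50 (23.2 and 22.0). The level of RAD50 is uncertain, since 79.7% of its exon bases are shared with AC116366.3. In DMSO, ATM had 136 per kb and ATR 117, while in AMF the order was turned, with ATM at 105 and ATR at 159.6. This order depends on the exon lengths taken, 18299 bases for ATM and 8249 for ATR, and other lengths were not tried. In normalized counts not set per length, ATM was above ATR in both groups (1922 and 1316 in AMF, 2486 and 968 in DMSO).

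**Figure D4:**
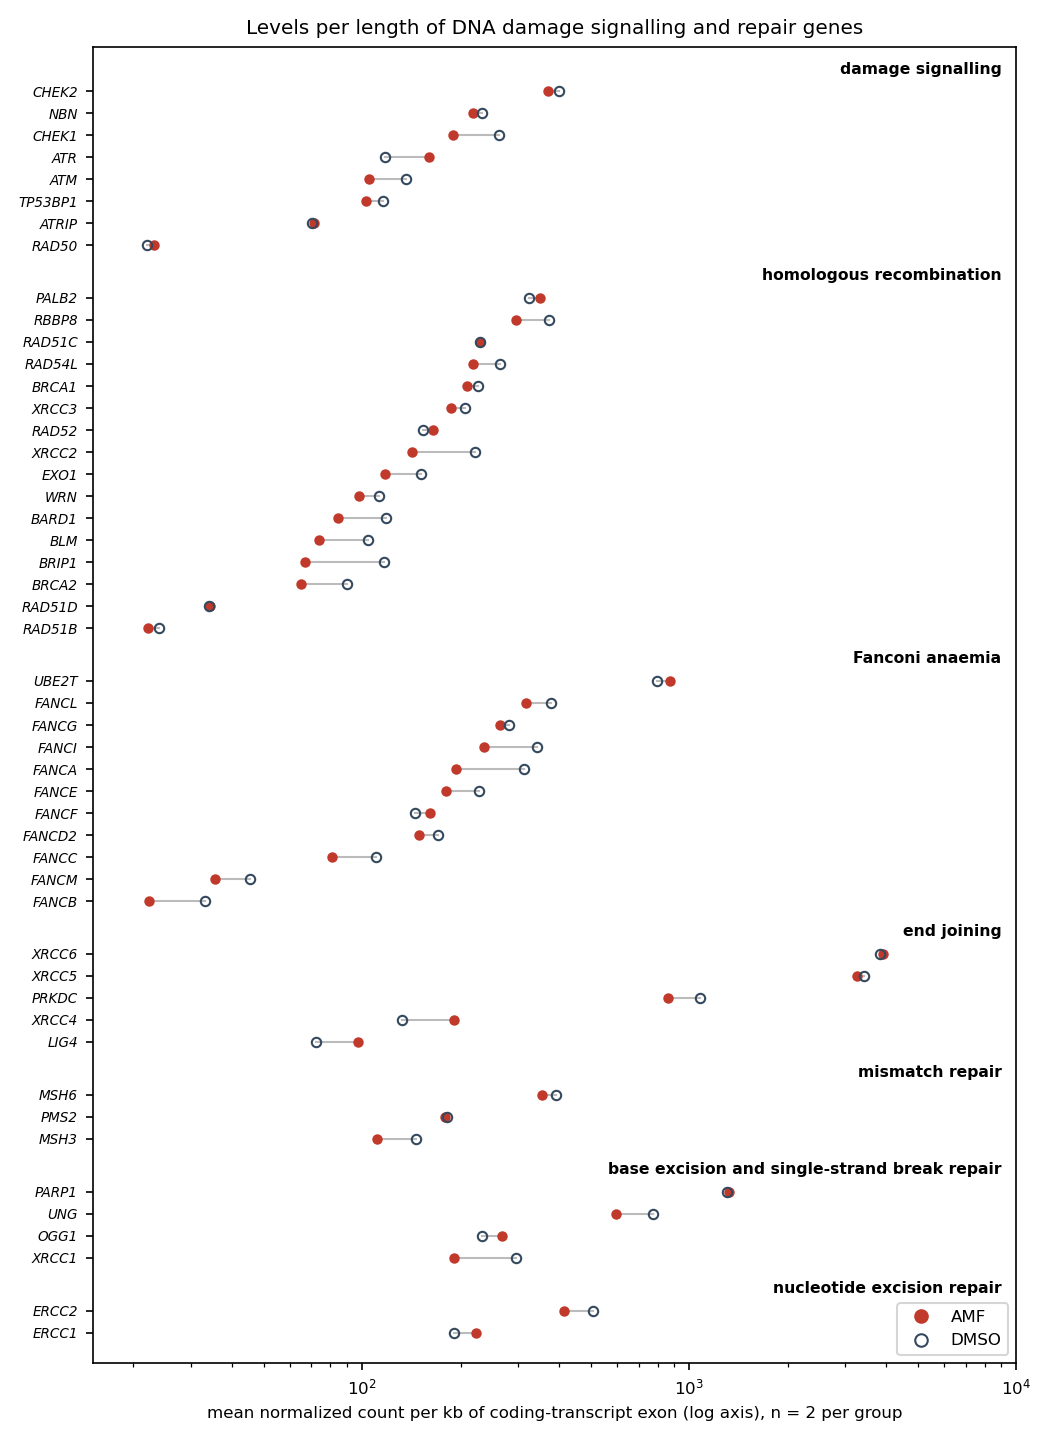
Mean normalized count per kb of coding-transcript exon (x axis, log scale, n = 2 per group) for the 49 genes by pathway, with filled red points for AMF and open points for DMSO, and genes ordered by their level in AMF. XRCC6 (3903 in AMF and 3839 in DMSO) and XRCC5 stand highest. At the exon lengths taken, the ATM and ATR points cross between the groups.

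Mismatch repair members had 1 of 3 called lower (33.3%) and 2 not called, near the 31.1% lower among all genes averaging 100 or more. MSH3, which recognises insertion loops, had 469.9 and 437 normalized counts in AMF (453 ± 23.4) and 589.8 and 603 in DMSO (596 ± 9.10), a log2 change of -0.40 (SE 0.0841, adjusted p = 0.00205). MSH6, which recognises single mismatches, had 2724 and 2807 in AMF (2766 ± 58.5) and 3248 and 2859 in DMSO (3054 ± 275), a log2 change of -0.14 (SE 0.0601, adjusted p = 0.0961). PMS2, a subunit of the MutL endonuclease, had 518 and 503 in AMF (510.4 ± 10.9) and 511 and 528 in DMSO (519 ± 11.9), a log2 change of -0.02 (SE 0.0826, adjusted p = 0.857). MSH6 passed the threshold with voom (adjusted p = 0.0459). PMS2 reads are uncertain because several near-identical copies exist.

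In base excision and single-strand break repair 2 of 4 members were called lower and 2 were not called. That is 50% lower, beside 31.1% of all genes averaging 100 or more normalized counts. XRCC1, the scaffold on which nicks are repaired, had 578 and 495.5 normalized counts in AMF (537 ± 58.0) and 856 and 795 in DMSO (825 ± 43.2), a log2 change of -0.62 (SE 0.0877, adjusted p = 6.32e-05). UNG, which removes uracil from DNA, had 1390.1 and 1448 in AMF (1419 ± 41.3) and 1976 and 1722 in DMSO (1849 ± 180.0), a log2 change of -0.38 (SE 0.0685, adjusted p = 5.77e-04). Both genes were lower in both AMF libraries, as were 44.6% of all genes averaging 100 or more. PARP1, the nick sensor that recruits XRCC1, had 5738 and 5546 in AMF (5642 ± 135) and 5812 and 5327 in DMSO (5569.6 ± 343), a log2 change of 0.02 (SE 0.0493, adjusted p = 0.807, 95% interval -0.09 to 0.13). OGG1, the glycosylase for 8-oxoguanine, had 796 and 815 in AMF (805 ± 13.5) and 732 and 675 in DMSO (703 ± 40.5), a log2 change of 0.20 (SE 0.0749, adjusted p = 0.0602). OGG1 overlaps CAMK1 in part on the opposite strand and was called with library totals as scaling and with a filter at a mean of 10.

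The 2 nucleotide excision members went in opposite directions. ERCC1, a subunit of the nuclease that cuts on the 5′ side of a lesion, had 985 and 959 normalized counts in AMF (972 ± 18.5) and 794 and 872 in DMSO (833 ± 55.1), a log2 change of 0.22 (SE 0.0721, adjusted p = 0.0274). Its call ended without a filter, and 28.6% of its exon bases overlap CD3EAP. ERCC2, the XPD helicase of TFIIH, had 1891 and 1784 in AMF (1838 ± 75.8) and 2240.2 and 2267 in DMSO (2254 ± 18.9), a log2 change of -0.29 (SE 0.0552, adjusted p = 7.56e-04). Neither gene had overlapping groups. Of all genes averaging 100 or more, AMF lay wholly above DMSO in 35.4% and wholly below in 44.6%.

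The remaining genes of these pathways, 102 with a row in the table, gave 12 called higher, 30 called lower and 60 not called, that is 11.8% higher and 29.4% lower, beside 23.6% and 31.1% of all genes averaging 100 or more. Their median log2 change was -0.06. Among 20 signalling genes 11 were called lower, led by H2AFX, which encodes the histone H2AX that is phosphorylated around breaks (-0.75), and CLSPN, the adaptor between ATR and CHK1 (-0.44), and 2 were called higher, RAD9A of the checkpoint clamp (0.27) and the ubiquitin ligase gene RNF8 (0.24). Among 16 recombination genes 6 were lower, led by RMI2, a partner of BLM (-0.62), and RAD51AP1 (-0.59), and 2 were higher, SWI5 (0.51) and the nuclease scaffold SLX4 (0.44). Of 9 Fanconi-related genes the falls were USP1 and its cofactor WDR48 (-0.28), and of 9 end joining genes LIG3 alone was called (-0.20).

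Mismatch and excision repair genes outside the 49 were mixed, and among all genes averaging 100 or more 23.6% were called higher and 31.1% lower. Of 4 mismatch genes 1 was called higher, PMS1 (0.21), a MutL homologue. Of 18 genes of base excision and single-strand break repair 5 fell, with the ligase LIG1 (-0.32) in front, and 3 rose, led by APTX, which removes failed ligation products (0.75), and the glycosylase MUTYH (0.67). Of 17 nucleotide excision genes 3 fell, DDB2 the furthest, and 3 rose, CETN2 (0.67) and the TFIIH subunit GTF2H5 (0.36) the furthest. Of 9 genes of translesion synthesis and direct reversal, REV3L, the catalytic subunit of polymerase zeta, fell by 0.45 and RAD18, which ubiquitinates PCNA, rose by 0.32.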

How the data were processed

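Per the labels' protocols, poly(A)-selected RNA of HepG2 cells was made into libraries that carry no strand information. The submitters' processing notes list STAR 2.7.0, featureCounts and hg19. Neither the annotation nor the normalization is given in the sources used here. The authors deposited log2-scale values per gene symbol, with a lowest value of 6.01 in each library, and the values themselves, not any note, show the form of a variance-stabilizing transform of size-factor-scaled counts. Columns were matched to samples by name. Inverting that form gave normalized counts, and dividing by the worth of 1 read (0.929 to 1.03) gave whole reads within 0.01 for 100% of values. Size factors were 1.0769 and 0.9707 for AMF replicates 1 and 2 and 1.0004 and 0.974 for DMSO replicates 1 and 2.

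Since the deposited unit was log2, the planned test for normalized values was used, limma-trend (limma 3.58.1, R 4.3.3) on log2(normalized count + 1), with group as the only term, for 23828 genes averaging 1 normalized count or more and Benjamini-Hochberg adjustment over them. Fold changes on this scale understate changes of low genes. The steps were tested on simulated data. Alternatives were a pseudocount of 0.1, no filter, a mean of at least 10, library totals, the deposited values, voom, a replicate block, stricter thresholds and each library left out.

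The members, pathway lists and naming rule were chosen with earlier results of these data known, so that shares of members set beside all genes are descriptions and not independent evidence. Library values were given for 8 preset genes, for groups of up to 5 members, and for the 4 largest falls and 2 largest rises called per larger group, while of other pathway genes the 2 largest falls and rises called per pathway were named, except some whose values are not reported here. Gene models came from GENCODE release 29, on another build than hg19, and in it exons of 27 of the 49 members overlap another gene. Without strand, reads of overlapping genes cannot be told apart. Promoters came from RefSeq on GRCh38.p14. Python 3.11.15 with matplotlib 3.10.9 drew the plots.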

Additional observations from a re-analysis of the deposited data

How the results depend on the processing

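Direction held for all 26 called members under each alternative run. All 26 calls were kept with a mean of at least 10, the deposited values, voom and the replicate block, 24 with a pseudocount of 0.1 and with library totals (TP53BP1 and FANCD2 ended) and 22 without a filter (FANCL and ERCC1 ended too). New calls were FANCM and OGG1 with a mean of at least 10, OGG1 with library totals, and FANCM and MSH6 with voom. Requiring a log2 change of 0.5 or more as well left 5 members lower and 1 higher. With a library left out, limma-trend called 0 to 3531 genes, 0 to 13 members lower and 0 to 2 higher, and 0 to 16 of the other pathway genes lower and 0 to 4 higher. With voom and a library left out these were 1315 to 6776 genes (1379 without AMF replicate 1), 3 to 24 members lower and 0 to 6 higher. The 0 calls without an AMF library come with a prior of about 1 degree of freedom, and the lone AMF library is assumed to vary like the DMSO pair. The median log2 change of Fanconi members was -0.251 on the deposited values, and the cause was not tested. With a library left out the medians ranged from -0.137 to -0.065 for damage signalling, from -0.291 to -0.183 for recombination, from -0.346 to -0.201 for Fanconi members, from -0.033 to 0.083 for end joining, from -0.232 to -0.048 for mismatch repair, from -0.26 to -0.098 for base excision and from -0.073 to 0.003 for nucleotide excision. Without DMSO replicate 1 the Fanconi and recombination medians (-0.201 and -0.205) were alike. Without DMSO replicate 2 the sign of 5 uncalled members turned (RAD51C, RAD51D, UBE2T, XRCC6 and PARP1), without AMF replicate 2 that of ATRIP, RAD51C and RAD51D, and without AMF replicate 1 that of PARP1.

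The replicate block called 25 members lower and 5 higher and 8157 genes in all, with FANCB, FANCM, MSH6 and OGG1 as new calls. Deviations of equally numbered libraries correlated at 0.024 over 11137 genes, so little shift common to them was seen. Whether equally numbered libraries were prepared together is not stated, and this correlation cannot tell. Depth limits FANCB and RAD51B most, since both average under 100 normalized counts.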

Other observations

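Some repair genes outside the 49 were counted at levels near 0 or far below their partners, and their exons are largely shared with a neighbour in GENCODE. NHEJ1, which encodes the XLF partner of XRCC4, had 3 and 4 reads in AMF and 2 and 5 in DMSO, with 65.4% of its exon bases shared with AC068946.1. GTF2H4, a TFIIH subunit, had 6 and 9 reads in AMF and 14 and 10 in DMSO, with 79.0% shared with VARS2. ERCC5, the nuclease on the 3′ side of a lesion, had 115 and 94 reads in AMF and 107 and 104 in DMSO, with 63.2% shared with BIVM-ERCC5. Among the 49, RAD50 has the largest such share. Whether the counting dropped reads in shared exons was not tested, and the levels of these genes are not comparable with those of their partners.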
